A study of Gallus gallus with 24 samples.

Results

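The comparison is between the breast muscle of hens that ate a high-fat diet for 15 days and the breast muscle of hens on a control diet. Its members are 8 RNA-sequencing libraries of the 24 in the series, 4 labelled SHFD (high-fat, 15 days) and 4 labelled CONT (control diet), all from the pectoralis major (PEM), and they are named here by diet and replicate number. The genes are the 10944 of 20780 in the deposited table that reached 1 FPKM in at least 4 of the 24 libraries; 438 of them stayed under 1 FPKM in all 8 libraries compared. All birds were Guangyuan Grey hens, were assigned to a diet at 150 days of age, and were killed at 210 days after a fast of 12 hours, so both groups compared were fasted. The other libraries come from breast muscle after 60 days of the high-fat diet (LHFD) and from the soleus (SOL), a leg muscle, of the birds on each diet. The composition of the diets, and when within the experiment the 15 days fell, are not given in the sources used here. The 4 libraries of a group are labelled as biological replicates out of 9 birds per diet. Which bird or how many birds stand behind each is not said. P-values therefore measure the spread between libraries and not between known birds, and those of single genes use a spread shared by all 24 libraries.

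The pectoralis major of the chicken is a white muscle built mainly of fast fibres, which make energy from stored glycogen by glycolysis and hold little myoglobin and few mitochondria. Fat that reaches such a fibre is taken up by transporters, bound, stored as triglyceride in lipid droplets or burned in mitochondria, and the droplet is opened by lipases under the control of inhibitor proteins. In fasted muscle, glucocorticoid hormone and low insulin are known to raise genes of protein breakdown, glutamine synthesis and the switch from glucose to fat. The Z-disc is the plate that anchors the thin filaments at the ends of each sarcomere, and many of its proteins are known to respond to load and fibre remodelling in mammals.

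The label of the tissue was checked against genes that define fast and slow fibres. The fast adult myosin MYH1E ranged from 8908 to 13620 FPKM over the 8 libraries, and LDHA, the lactate dehydrogenase subunit of glycolytic muscle, from 7125 to 10180 FPKM. The slow myosin MYH7B was at 0.0637 to 0.789 FPKM in the SHFD libraries and 0.125 to 2.69 FPKM in the CONT libraries, and the slow troponin TNNI1 at 0.624 to 1.84 and 0.0715 to 6.11 FPKM. These are the levels of a fast muscle, with the slow genes near 0 in both diets.

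One control library stood apart from the rest before any comparison was made. CONT 2 correlated with its group at a mean r of 0.943 on the log2 scale, the lowest of all 24 libraries, against 0.959 to 0.967 for the other CONT libraries and 0.974 to 0.978 for SHFD. It listed 10484 genes at 1 FPKM or more, where the other 3 CONT libraries listed 9285 to 9432 and the SHFD libraries 9366 to 9612. Its marker sums for white blood cells were raised as well, as described with the markers below. The values of each library summed to between 479179 and 507590 FPKM, a unit that does not tell how many reads each library had. Where a named call or difference turned on CONT 2, the text gives its value without that library or says that the call was lost or gained.

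Short feeding changed few genes past the threshold. With limma fitted to log2(FPKM + 1) of all 24 libraries and Benjamini-Hochberg adjustment, 117 of the 10944 genes (1.07%) passed an adjusted p of 0.05; 59 were higher in SHFD (0.539%) and 58 were lower (0.53%). The smallest adjusted p was 0.00676, and 1444 genes (13.2%) had an unadjusted p under 0.05. Rises ranged from 0.47 to 2.32 on the log2 scale and falls from -0.39 to -2.19, and 82 of the 117 were under 2-fold. Across all genes tested the median log2 fold change was -0.02. The 4 SHFD and 4 CONT values did not overlap for 55 of the rises and 55 of the falls, where over all genes tested 5.88% did not overlap, 2.74% wholly higher and 3.13% wholly lower. These calls rest on the spread shared by the 24 libraries. That fit treats all 24 as independent, though breast and soleus libraries may share birds. With only the 8 breast muscle libraries in the limma fit, no gene passed and the smallest adjusted p was 0.0517. There 1086 genes (9.92%), among them all 117, had an unadjusted p under 0.05. The fold changes are the same in both fits, so no direction could turn. Leaving out single libraries gave between 47 calls (without SHFD 3) and 173 calls (without CONT 2), with 63 without SHFD 1, 68 without CONT 1 and 65 without CONT 3.

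**Figure D1:**
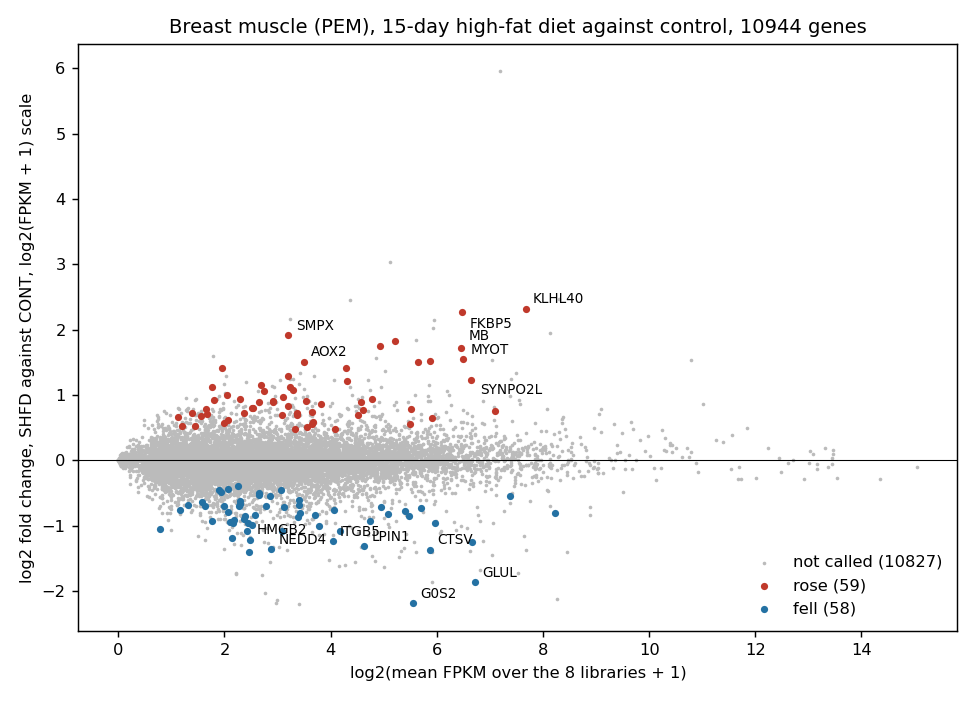
Each point is 1 of the 10944 genes tested in breast muscle, with its mean level over the 8 libraries on the horizontal axis, as log2(mean FPKM + 1), and the log2 fold change of SHFD against CONT on the log2(FPKM + 1) scale on the vertical axis. The 59 genes that rose are red, the 58 that fell are blue, and most of both lie within 1.5 log2 units of 0, while several larger differences in grey were not called.

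In the Z-disc list 3 genes rose. MYOT encodes myotilin, a Z-disc protein that binds alpha-actinin and filamin. It was at 141, 103, 143 and 149 FPKM in SHFD 1 to 4 and at 50.4, 52.4, 35.7 and 42.4 FPKM in CONT 1 to 4. Every SHFD library lay well above every CONT library, and the rise of 1.55 (SE 0.22) on the log2 scale had the smallest adjusted p of the comparison, 0.00676 by limma. SYNPO2L, a synaptopodin-related protein that cross-links actin at the Z-disc, was at 139.9, 109, 165 and 146 FPKM in SHFD and at 68.4, 51.3, 57.0 and 57.8 FPKM in CONT. Again the groups were far apart, and the rise was 1.23 (SE 0.22, adjusted p = 0.0101). SMPX, a small muscle protein known in mouse as stretch-responsive, was low in breast muscle, at 6.16, 12.4, 6.82 and 31.0 FPKM in SHFD and 1.59, 2.95, 2.12 and 2.76 FPKM in CONT. SHFD 4 was the highest and the groups did not overlap, for a rise of 1.91 (SE 0.37, adjusted p = 0.0141). All 3 calls held when any 1 of the 8 libraries was left out of the limma fit.

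Of the 26 Z-disc and load-responsive genes tested, these 3 rose and none fell, 11.5% against 1.07% of all genes. This and the other gene lists were made with earlier results of these data known. The shares called within them are therefore descriptions and not tests. By value 23 of the 26 were higher in SHFD, and the list median was 0.47 against -0.02 for all genes tested. XIRP1, a Xin actin-binding protein of remodelling muscle, was at 25.1, 77.01, 225 and 76.4 FPKM in SHFD and 17.2, 15.8, 12.2 and 31.7 FPKM in CONT. Its groups overlapped through SHFD 1 and CONT 4, and it was not called (2.02, SE 0.55, adjusted p = 0.0765). ANKRD1, a stress-induced partner of titin chosen after its values were seen, had the largest difference of the list and again its lowest SHFD value in SHFD 1, at 60.5 FPKM, while SHFD 2 to 4 were at 962, 732 and 331 FPKM. CONT 1, 3 and 4 were at 60.3, 21.6 and 33.2 FPKM but CONT 2 was at 318 FPKM, and the difference of 2.47 (SE 0.89) had an adjusted p of 0.201, or 3.26 and 0.0629 without CONT 2. NEXN, the Z-disc protein nexilin, at 261 ± 108 against 98.6 ± 25.6 FPKM (SD, n = 4 each), and MUSTN1, at 75.5 ± 23.8 against 20.1 ± 6.56 FPKM, did not overlap between groups yet missed the threshold, with adjusted p of 0.0849 and 0.109; both were picked for mention from their values.

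The giant filament proteins nebulin, which sets the length of the thin filament, and titin, the elastic spring of the sarcomere, carry no symbol in the table but are named by its pathway annotation. Among 4 genes annotated as nebulin, 2 rose, where 0.539% of all genes tested rose. ENSGALG00000050717 was at 109.5, 52.1, 89.8 and 90.8 FPKM in SHFD and 35.2, 17.8, 33.3 and 30.5 FPKM in CONT, without overlap, and rose by 1.51 (SE 0.29, adjusted p = 0.0133). ENSGALG00000053408 followed it library by library, with 95.8, 43.4, 78.9 and 74.9 FPKM against 30.2, 15.35, 26.2 and 27.96 FPKM (1.505, SE 0.29, adjusted p = 0.0141; 0.0501 without SHFD 1). The other nebulin genes, which carried most of the FPKM, differed by 0.42 and 0.23 and were not called. Of 6 genes annotated as titin, 2 rose, again beside 0.539% of all genes tested. The rises were 0.88 (adjusted p = 0.0258, lost without SHFD 1, SHFD 3 or CONT 1, where it reached 0.0853) and 1.29 (adjusted p = 0.0493, kept only without CONT 4, otherwise up to 0.138). The most abundant titin gene was at 1702 ± 264 FPKM in CONT and differed by 0.05. The sources used here do not say whether these identifiers are parts of a single gene, and their values may describe the same transcripts.

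KLHL40 showed the largest rise of all called genes. It encodes a Kelch protein that in mouse and human guards nebulin and leiomodin in the thin filament. Its values were 68.5, 262, 832 and 252 FPKM in SHFD and 73.3, 40.5, 29.4 and 65.7 FPKM in CONT. SHFD 1 stayed within the control range and SHFD 3 lay far above the rest, so the mean of 354 ± 331 FPKM has a wide spread. The rise of 2.32 (SE 0.55, adjusted p = 0.0415) was lost when SHFD 2, 3 or 4 or CONT 1, 2 or 3 was left out, with an adjusted p of up to 0.159. Of 20 genes for filament scaffolds and their turnover, KLHL40 alone was called (5% against 1.07% of all genes), and the list median was 0.23. KLHL31, another Kelch protein of muscle, was at 231 ± 20.2 against 174 ± 21.0 FPKM without overlap and was not called (adjusted p = 0.218).

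**Figure D2:**
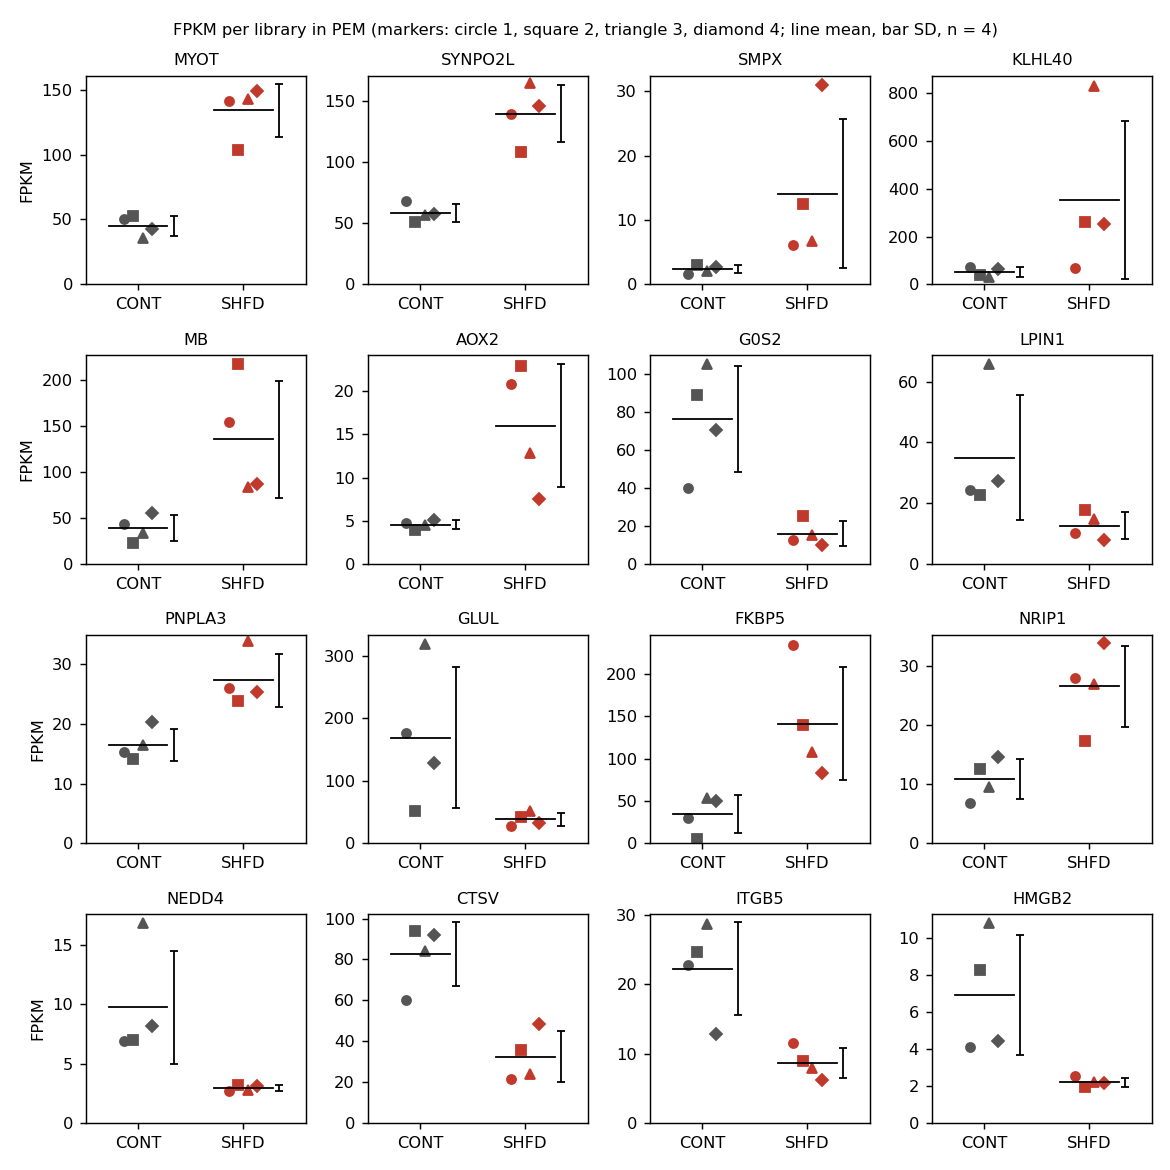
FPKM of 16 genes in each breast muscle library, with CONT in grey and SHFD in red, the replicate number shown by the marker shape, the group mean as a line and its SD (n = 4) as a bar. MYOT and SYNPO2L separate the diets with small spread, NEDD4 does so with CONT 3 far above the other controls, and KLHL40 has SHFD 3 far above the rest and SHFD 1 among the controls.

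Myoglobin rose, and no fibre-type myosin in the lists was called. MB, the oxygen store of red fibres, was at 154, 217, 83.3 and 87.2 FPKM in SHFD and 43.9, 22.8, 34.1 and 55.6 FPKM in CONT. SHFD 1 and 2 were highest, CONT 2 lowest, and no values overlapped. The rise of 1.72 (SE 0.39, adjusted p = 0.0319) lost its call without SHFD 1, SHFD 2, CONT 1, CONT 2 or CONT 3, with an adjusted p of up to 0.0919, and of 0.0723 without CONT 2. MB was the only call among 20 slow-type sarcomere and calcium-handling genes (5% against 1.07% of all genes), whose median was 0.10. MYBPC1, the slow myosin-binding protein C, spanned 103, 19.2, 20.9 and 0.455 FPKM in SHFD and 7.16, 4.27, 0.0457 and 0.647 FPKM in CONT. That spread of over 2 orders of magnitude within each diet left its difference of 2.46 (SE 0.93) uncalled (adjusted p = 0.228). PLN, the phospholamban that restrains the calcium pump, averaged 1.97 ± 0.584 against 0.904 ± 1.01 FPKM and overlapped. Myoglobin, MYOT and SMPX are far more abundant in the soleus, at 6732 ± 644, 1366 ± 369 and 264 ± 31.5 FPKM in its CONT libraries. SYNPO2L and KLHL40 were also higher there than in CONT breast muscle, at 281 ± 67.2 and 164.5 ± 35.01 FPKM. The slow genes MYH7B and TNNI1 stayed under 2 FPKM in every SHFD breast library. Whether the share of slow fibres differed between the diets was not tested. TNNI1 was higher in each SHFD library than in CONT 2 to 4 and lower than in CONT 1. The summed slow list, at 4918 to 7308 FPKM in SHFD and 6337 to 6601 in CONT, overlapped between diets.

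None of the 18 fast-type sarcomere and calcium genes was called, and their median was -0.07. MYH1E averaged 11260 ± 1960 FPKM in SHFD and 10940 ± 1823 in CONT (0.04, SE 0.36, adjusted p = 0.985). RYR3, a calcium release channel that birds use together with RYR1 in fast fibres, was at 107 ± 18.4 against 71.2 ± 10.5 FPKM without overlap, and narrowly missed the threshold (0.58, SE 0.15, adjusted p = 0.0588). TPM2, beta-tropomyosin, was at 61.7, 45.5, 58.3 and 7.72 FPKM in SHFD and 10.4, 23.6, 3.69 and 13.9 FPKM in CONT. With SHFD 4 inside the control range it was not called (adjusted p = 0.162). Among 33 fibre type and myogenic regulators no gene was called, and the list median of 0.05 was close to that of all genes.

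Mitochondrial genes leaned upward by small amounts that did not pass the test gene by gene. Of all 10944 genes tested, 4979 were higher in SHFD by value. All 13 mitochondrially encoded genes were, by 0.09 to 0.49, and none was called. Together they took 14.9% ± 2.06 of the FPKM sum in SHFD and 13.2% ± 1.97 in CONT (SD, n = 4 each), a difference of 1.72 percentage points that did not exceed the spread (exact two-sided permutation test, p = 0.3143; 4 against 4 cannot go below 0.0286). Of 24 genes of the TCA cycle, the mitochondrial route that oxidises acetyl-CoA, 21 were higher by value and the median was 0.21, with no calls. PDHB, a pyruvate dehydrogenase subunit, averaged 81.2 ± 5.47 against 61.8 ± 6.17 FPKM without overlap (0.39, SE 0.11, adjusted p = 0.0800). DLD, the dehydrogenase subunit that pyruvate dehydrogenase shares with other complexes, was at 153 ± 14.9 against 119 ± 16.1 FPKM, and IDH3A, of the isocitrate step, at 119.6 ± 10.7 against 89.95 ± 8.70 FPKM. Neither overlapped between groups or passed, with adjusted p of 0.107 and 0.19. MDH1, the cytosolic malate dehydrogenase, differed by 0.39 (adjusted p = 0.17). For the 57 nuclear genes of oxidative phosphorylation the median was 0.09, 44 were higher by value and none was called, and for 31 genes of fatty acid oxidation and the fuel switch the median was 0.02. Because bulk RNA was measured, fewer cells of a type and less RNA per cell cannot be told apart in any of these values.

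In the lipid droplet and lipolysis list G0S2 and LPIN1 fell and PNPLA3 rose. G0S2 is an inhibitor of PNPLA2, the lipase that starts triglyceride breakdown. It was at 12.8, 25.2, 15.2 and 10.0 FPKM in SHFD and 40.2, 89.2, 105 and 70.4 FPKM in CONT. The groups did not overlap, and the fall of 2.19 (SE 0.51, adjusted p = 0.0359) was the largest of all called genes. That call was lost without SHFD 1, 3 or 4 or CONT 2, 3 or 4, where the adjusted p reached up to 0.111 and was 0.0639 without CONT 2. PNPLA2 itself averaged 34.4 ± 8.68 against 20.3 ± 11.3 FPKM, overlapped between groups and was not called (0.83, SE 0.34, adjusted p = 0.276). PNPLA3, a related droplet protein with lipase and acyl-transfer activity, was at 26.0, 23.9, 33.9 and 25.4 FPKM in SHFD and 15.3, 14.1, 16.4 and 20.3 FPKM in CONT. All SHFD values were above all CONT values, and it rose by 0.69 (SE 0.14, adjusted p = 0.0167; 0.0815 at most, without SHFD 3 or CONT 1). LPIN1, the phosphatidate phosphatase that makes diacylglycerol for triglyceride and also acts with PGC-1 in mouse, was at 10.2, 17.7, 14.9 and 7.72 FPKM in SHFD and 24.2, 22.6, 65.8 and 27.4 FPKM in CONT. CONT 3 was the highest and no values overlapped, for a fall of 1.32 (SE 0.27, adjusted p = 0.0167; up to 0.0598 without SHFD 1 or SHFD 4). Of 13 droplet and lipolysis genes 1 rose and 2 fell (23.1% against 1.07% of all genes), and their median was 0.06. This list, too, was made with earlier results of these data known. PLIN2, the coat protein of droplets, averaged 17.8 ± 6.39 against 13.5 ± 2.71 FPKM and overlapped (adjusted p = 0.656).

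Few genes for the uptake, burning and synthesis of fatty acids were called at 15 days. None of 16 uptake and binding genes was called, which in so short a list cannot be told from the 1.07% of all genes. Their median was -0.26, against -0.02 for all genes tested. CD36, a fatty acid transporter, was at 3.76 ± 1.92 against 2.38 ± 0.887 FPKM, and lipoprotein lipase LPL at 9.52 ± 8.28 against 6.02 ± 5.76 FPKM, with overlap in both. FABP3, the muscle fatty acid-binding protein, averaged 129 ± 52.7 and 117 ± 27.3 FPKM. SLC27A1, a fatty acid transport protein, was at 16.7, 6.49, 10.7 and 11.9 FPKM in SHFD and 30.3, 7.46, 54.5 and 23.1 FPKM in CONT. Only CONT 2 kept the groups from separating: the difference of -1.03 (adjusted p = 0.248) became -1.54 with an adjusted p of 0.0189 when CONT 2 was left out. VLDLR, a receptor for triglyceride-rich particles, differed by -0.44 (adjusted p = 0.237). CPT1A, the gate for fatty acids into mitochondria, averaged 20.0 ± 6.79 against 21.2 ± 3.08 FPKM (-0.12, SE 0.24), and UCP3, a mitochondrial carrier raised by fat in mammals, 1138 ± 385 against 874 ± 265 FPKM (0.36, SE 0.35). CRAT, which buffers acetyl groups on carnitine, was higher by 0.35 without overlap, with an adjusted p of 0.266.

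PDK4, the kinase that shuts pyruvate out of the mitochondrion in fasting, spread widely: 67.3, 34.5, 12.5 and 65.6 FPKM in SHFD and 118, 23.9, 233 and 338 FPKM in CONT. CONT 2 again lay among the SHFD values, and the difference of -1.69 (SE 0.68, adjusted p = 0.268) became -2.46 with an adjusted p of 0.0406 without it. Of 27 genes that make fatty acids, triglyceride and phospholipid only LPIN1 fell (3.70% against 1.07% of all genes). AGPAT2, an acyltransferase of triglyceride synthesis, averaged 2.68 ± 1.46 against 5.36 ± 1.95 FPKM (-0.83, adjusted p = 0.108), and FASN, the fatty acid synthase, stayed near 1 FPKM in both diets. SCD, the stearoyl-CoA desaturase, did not reach the filter. HACD4, which encodes a dehydratase of fatty acid elongation and was chosen after its values were seen, rose by 1.41 (adjusted p = 0.0493) from 0.944 ± 0.521 to 4.80 ± 3.53 FPKM. SHFD 2 and CONT 2 lay side by side at 1.65 FPKM, so the groups overlapped, and the call was kept only without SHFD 2, SHFD 4 or CONT 2, with an adjusted p of up to 0.182 otherwise. Among 21 cholesterol genes none was called.

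The regulators of this metabolism included NRIP1, a corepressor that holds back oxidative and fat-burning genes in mouse muscle. It was at 27.99, 17.2, 26.9 and 33.9 FPKM in SHFD and 6.87, 12.6, 9.50 and 14.6 FPKM in CONT. The groups did not overlap, and it rose by 1.22 (SE 0.26, adjusted p = 0.0205; up to 0.0701 without SHFD 1, 3 or 4 or CONT 1 or 3). It was the single call among 18 PPAR, PGC-1 and ERR regulators and targets (5.56% against 1.07% of all genes). PPARD, a nuclear receptor for fatty acids, was at 8.72 ± 1.39 FPKM in SHFD and at 21.6, 7.91, 24.9 and 22.8 FPKM in CONT. CONT 2 fell among the SHFD values, and the difference of -0.96 (adjusted p = 0.087) became -1.32 with an adjusted p of 0.00500 without it. PPARA and PPARGC1A stayed between 0.621 and 2.51 FPKM in all 8 libraries and were not called, and ANGPTL4, a PPAR target that inhibits lipoprotein lipase, was under 1.5 FPKM in each. Among calls outside these lists, picked for mention from their values, SLC25A17, the peroxisomal cofactor carrier, fell from 6.16 ± 0.951 to 2.69 ± 0.472 FPKM without overlap (-0.96, SE 0.15, adjusted p = 0.00681). NPC1, which exports cholesterol from lysosomes, fell from 12.6 ± 2.72 to 6.71 ± 0.632 FPKM (-0.80, adjusted p = 0.0438), a call kept only without CONT 2 or CONT 4 and otherwise at up to 0.149.

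Genes known to answer to glucocorticoid hormone moved in both directions. FKBP5, a chaperone partner of the glucocorticoid receptor and one of its standard targets, was at 235, 139.9, 108 and 83.0 FPKM in SHFD and 30.3, 5.36, 53.4 and 50.4 FPKM in CONT. All SHFD values lay above all CONT values, with CONT 2 lowest. The rise of 2.28 (SE 0.55, adjusted p = 0.048) became 1.57 with an adjusted p of 0.0900 without CONT 2, and the call was also lost without SHFD 1, 2 or 3 or CONT 1, at up to 0.131. GLUL, glutamine synthetase, ran the other way: 27.6, 42.3, 51.9 and 32.4 FPKM in SHFD against 177, 51.7, 319 and 129 FPKM in CONT. CONT 2 was just below SHFD 3 and the other controls were far above. The fall was 1.87 (SE 0.39, adjusted p = 0.0181), or 2.34 with an adjusted p of 0.00165 without CONT 2, and the call was lost without SHFD 1, CONT 1 or CONT 3, at up to 0.0633.

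Of 22 genes tested on the glucocorticoid-responsive list, FKBP5 and KLHL40 rose and GLUL and LPIN1 fell (18.2% against 1.07% of all genes), and the median was -0.58. The list was made with earlier results of these data known. KLHL40, the Kelch protein counted above with the filament scaffolds, enters only by its place on this list. Whether it answers to the hormone was not tested. KLF15, a fasting-induced transcription factor, was at 8.51, 8.85, 3.48 and 5.98 FPKM in SHFD and 26.9, 7.997, 32.6 and 22.4 FPKM in CONT. DDIT4, an inhibitor of mTORC1 raised by stress, was at 108, 101, 98.5 and 159.6 FPKM against 264, 167, 472 and 210.5 FPKM. TRIM63, the atrophy ubiquitin ligase MuRF1, was at 61.2, 83.7, 37.2 and 139 FPKM against 249.9, 93.9, 536 and 268 FPKM. In each of the 3 CONT 2 was the lowest control and CONT 3 the highest, and none was called with all libraries (adjusted p = 0.0664, 0.0765 and 0.0849). Without CONT 2, none of the 22 rose and 6 fell, namely GLUL, LPIN1, KLF15, DDIT4, TRIM63 and PDK4, and the median was -0.42. Over all 10944 genes tested without CONT 2, 74 rose and 99 fell, and the median was 0.02. KLF15 and DDIT4 were named after their values were seen.

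Insulin and amino acid signalling held 1 call among 33 genes (3.03% against 1.07% of all genes). EIF4EBP1, the translation inhibitor that mTORC1 switches off, was at 135, 124, 134 and 139 FPKM in SHFD and 201, 147.7, 201 and 238 FPKM in CONT. The SHFD libraries were close together and all below the controls, and it fell by 0.54 (SE 0.13, adjusted p = 0.0375), but the call held only when CONT 2 was the library left out (0.0100) and otherwise reached up to 0.0956. TBC1D4, a brake on vesicle traffic downstream of insulin, was at 18.3 ± 0.782 FPKM in SHFD and at 30.6, 19.5, 57.0 and 30.9 FPKM in CONT, without overlap. Its adjusted p was 0.0698 with all libraries and 0.0113 without CONT 2. IRS1, the insulin receptor substrate, averaged 19.5 ± 2.59 against 30.8 ± 7.39 FPKM (-0.61, adjusted p = 0.229), and GRB10, an inhibitor of the insulin receptor, 27.5 ± 11.6 against 14.6 ± 4.38 FPKM (0.82, adjusted p = 0.198). A gene without a symbol that the table annotates as a sestrin of the type 1/3, ENSGALG00000005648, fell from 5.16 ± 1.61 to 1.72 ± 0.792 FPKM without overlap (-1.18, SE 0.21, adjusted p = 0.0101). Sestrins are stress-induced proteins that restrain mTORC1, and the other genes with that annotation, SESN1 and SESN3, differed by 0.20 and -0.05 and were not called. PRKAG3, the AMPK subunit of white muscle, was at 120.4, 104, 126 and 101 FPKM in SHFD and 164, 152, 168 and 169.8 FPKM in CONT. Although every SHFD value was below every CONT value, the difference of -0.54 (SE 0.34) was not called (adjusted p = 0.53). That SE uses the spread shared by all 24 libraries, and in the soleus libraries PRKAG3 ranged from 1.42 to 14 FPKM. The missing call is therefore no measure of its spread in breast muscle alone. No call fell among the 12 AMPK genes.

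Of 34 genes of atrophy, autophagy and proteolysis only NEDD4 fell, and none rose (2.94% against 1.07% of all genes). NEDD4, a ubiquitin ligase that marks membrane proteins for removal, was at 2.71, 3.17, 2.81 and 3.08 FPKM in SHFD and 6.90, 7.03, 16.9 and 8.19 FPKM in CONT. The SHFD values were tightly grouped below all controls, CONT 3 was the highest, and the fall of 1.36 (SE 0.22, adjusted p = 0.00681) held with any 1 library left out. CTSV, a lysosomal cysteine protease, was at 21.7, 35.8, 23.8 and 48.5 FPKM in SHFD and 60.2, 94.1, 84.1 and 92.0 FPKM in CONT. It did not overlap and fell by 1.37 (SE 0.27, adjusted p = 0.0141; up to 0.0588 without SHFD 1 or SHFD 3). IDE, the insulin-degrading enzyme, named after its value was seen, rose from 35.4 ± 2.34 to 52.8 ± 6.32 FPKM (0.56, SE 0.10, adjusted p = 0.0108) and kept its call with any library left out. No call was made among 39 proteasome genes, and their median was 0.00.

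The core clock contributed PER2, the repressor that closes the daily feedback loop. It was at 12.3, 6.001, 8.92 and 5.30 FPKM in SHFD and 4.12, 2.87, 3.70 and 2.38 FPKM in CONT. SHFD 1 was the highest and the groups did not overlap, for a rise of 1.05 (SE 0.21, adjusted p = 0.0167; up to 0.0691 without SHFD 1 or SHFD 3). It was the single call among 18 clock genes (5.56% against 1.07% of all genes), whose median was 0.04. NR1D2, another repressor of the loop, averaged 12.2 ± 3.40 against 6.91 ± 0.848 FPKM with overlap and was not called (adjusted p = 0.107). The sources used here give no hour of killing, and diet and hour cannot be told apart for these genes.

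Carbohydrate and nitrogen metabolism gave scattered calls. None of 21 genes of glycogen breakdown and glycolysis was called. HK2, the hexokinase that traps glucose in muscle, was at 20.3, 29.8, 30.2 and 28.1 FPKM in SHFD and 9.35, 15.8, 13.7 and 9.45 FPKM in CONT. Every SHFD library exceeded every control, and the difference of 1.12 (SE 0.29, adjusted p = 0.0601) passed without CONT 2 (1.25, adjusted p = 0.039). PFKFB3, which makes the activator of phosphofructokinase, spread from 20.2 to 122 FPKM in SHFD and from 43.0 to 406 FPKM in CONT and was not called (adjusted p = 0.308). LDHA differed by -0.05 and LDHB, the heart-type subunit, by -0.29, neither called. TALDO1, transaldolase of the pentose phosphate pathway, fell from 33.9 ± 7.16 to 17.4 ± 4.30 FPKM (-0.93, SE 0.20, adjusted p = 0.0226; up to 0.0755 without SHFD 2, SHFD 4 or CONT 3). UCKL1, a uridine kinase-like enzyme, fell from 42.8 ± 11.5 to 23.2 ± 1.57 FPKM (-0.82, adjusted p = 0.016; 0.0548 without CONT 3). Of 29 genes of amino acid and creatine metabolism, GLUL and SAT1 fell (6.90% against 1.07% of all genes). SAT1, which starts the breakdown of polyamines, went from 56.5 ± 13.4 to 30.8 ± 6.43 FPKM (-0.85, adjusted p = 0.0457), a call kept only without SHFD 4 or CONT 1 and otherwise at up to 0.166.

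AOX2, an aldehyde oxidase, was the single call among 30 oxidative stress genes (3.33% against 1.07% of all genes). It was at 20.8, 23.0, 12.8 and 7.504 FPKM in SHFD and 4.69, 3.94, 4.46 and 5.12 FPKM in CONT. SHFD 1 and 2 were the highest, as for MB, the controls were close together, and the rise of 1.51 (SE 0.29, adjusted p = 0.0133) held with any library left out. HMOX1, the inducible haem oxygenase, averaged 2.42 ± 0.467 against 5.34 ± 2.15 FPKM (-0.83, adjusted p = 0.121).

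Several factors that handle RNA rose by modest amounts; they were grouped after their values were seen, by the deposited gene ontology except for RBBP6, which carries none of its RNA processing terms, and the grouping is a description. UPF3B, a protein of the exon junction and of nonsense-mediated decay, was at 58.0, 52.7, 53.8 and 61.0 FPKM in SHFD and 30.1, 37.8, 35.7 and 26.6 FPKM in CONT. All SHFD values were above all CONT values (0.78, SE 0.12, adjusted p = 0.00681), and the call held with any library left out. RBBP6, a ubiquitin ligase tied to the cleavage of mRNA ends, rose from 9.10 ± 2.62 to 17.0 ± 2.85 FPKM (0.85, SE 0.15, adjusted p = 0.0108), also with any library left out. PPIG, a nuclear cyclophilin, rose by 0.93 (adjusted p = 0.026), the splicing kinase PRPF4B by 0.73 (0.0294), U2SURP of the U2 particle by 0.56 (0.0213) and THOC2 of the mRNA export complex by 0.90 (0.0394). Each of these last 4 lost its call without SHFD 1 and without CONT 1, PPIG and PRPF4B also without SHFD 3 or SHFD 4, U2SURP without SHFD 3 or CONT 3, and THOC2 without SHFD 3, SHFD 4 or CONT 3, with adjusted p of at most 0.107. SNRNP35, of the minor spliceosome, fell from 6.65 ± 1.36 to 3.30 ± 0.860 FPKM (-0.84, adjusted p = 0.0184; up to 0.0841 without SHFD 3 or CONT 3). Of 416 genes annotated to mRNA processing 6 rose and 1 fell (1.68%), close to the 1.07% of all genes, and their median was -0.01. Of 752 genes under the wider term RNA processing 7 rose and 2 fell (1.2%), SNRNP35 being 1 of the falls.

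Chromatin proteins, also grouped after their values were seen, included calls in both directions. H2AZ2, a histone variant of active promoters, was at 34.1, 20.4, 33.2 and 33.7 FPKM in SHFD and 47.5, 46.9, 58.9 and 54.4 FPKM in CONT. SHFD 2 was well below the other SHFD libraries and all were below the controls (-0.78, SE 0.13, adjusted p = 0.0101). H3F3B, a gene for the replacement histone H3.3, fell from 63.8 ± 6.82 to 38.1 ± 5.37 FPKM (-0.74, adjusted p = 0.0167; 0.0501 without CONT 1). The linker histone H1-10 fell from 82.7 ± 27.2 to 40.6 ± 6.36 FPKM (-0.97, adjusted p = 0.026; up to 0.101 without SHFD 1, 2 or 3 or CONT 1 or 3). SMARCD2, a subunit of SWI/SNF remodelling complexes, fell from 9.94 ± 2.11 to 5.58 ± 0.417 FPKM (-0.71, adjusted p = 0.0104). HMGB2, a DNA-bending protein most abundant in dividing cells, was at 2.52, 1.92, 2.22 and 2.15 FPKM in SHFD and 4.11, 8.27, 10.8 and 4.42 FPKM in CONT. CONT 2 and 3 were the highest, no values overlapped, and it fell by 1.22 (SE 0.22, adjusted p = 0.0104). The calls of H2AZ2, SMARCD2 and HMGB2 held with any library left out. Of 580 genes annotated to chromatin organization, a term that H1-10 does not carry, 4 rose and 6 fell (1.72%, close to the 1.07% of all genes), with a median of -0.02. The rises were PER2, ATAD2B (0.57, adjusted p = 0.028, kept only without SHFD 2 or CONT 3 and otherwise at up to 0.105) and 2 genes without a symbol, and the falls included LPIN1 and OIP5 (-0.65, adjusted p = 0.0231; up to 0.0941 without SHFD 2, SHFD 3 or CONT 2).

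Of 21 cell cycle genes HMGB2 and CCND2 fell (9.52% against 1.07% of all genes) and none rose. CCND2, a D-type cyclin, fell from 4.97 ± 1.34 to 2.12 ± 0.226 FPKM without overlap (-0.91, SE 0.18, adjusted p = 0.0144; 0.0581 without SHFD 3). CCND3 (-0.51, adjusted p = 0.0791) and the cyclin-dependent kinase inhibitor CDKN1B (-0.48, adjusted p = 0.11) were also wholly lower in SHFD and were not called. Among transcription regulators, MXD4, a repressor that competes with MYC for MAX, fell by 0.84 (adjusted p = 0.034; up to 0.136 without SHFD 1, 3 or 4 or CONT 3 or 4). Outside the naming rule, PNRC1, a coregulator of nuclear receptors, fell from 384 ± 119.7 to 214 ± 33.5 FPKM (-0.80, SE 0.16, adjusted p = 0.0167; 0.0724 without SHFD 3). RFX5, the factor that drives MHC class II genes, fell from 5.69 ± 1.24 to 2.73 ± 0.769 FPKM (-0.85, SE 0.16, adjusted p = 0.0121), a call that held with any library left out.

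Adhesion and membrane traffic supplied further calls. ITGB5, the integrin beta-5 subunit that binds vitronectin, was at 11.5, 8.94, 7.97 and 6.21 FPKM in SHFD and 22.8, 24.6, 28.6 and 12.9 FPKM in CONT. CONT 4 was the lowest control and still above all SHFD values, and the fall of 1.24 (SE 0.22, adjusted p = 0.0101) held with any library left out. It was the single call among 29 integrin and adhesion genes (3.45% against 1.07% of all genes). ITGA6, a laminin-binding integrin subunit, averaged 6.60 ± 3.10 against 3.62 ± 0.813 FPKM with overlap (adjusted p = 0.0914). SEMA6B, a semaphorin guidance protein, rose from 5.39 ± 2.30 to 12.1 ± 2.64 FPKM (1.07, SE 0.20, adjusted p = 0.0108), and GOLGA4, a golgin that tethers vesicles, from 3.03 ± 1.09 to 7.82 ± 1.77 FPKM (1.15, SE 0.21, adjusted p = 0.0108). The endosome tether EEA1 rose by 0.90 (adjusted p = 0.0167; up to 0.061 without SHFD 1 or CONT 1) and VPS13A, a bridge that passes lipid between membranes, by 0.83 (adjusted p = 0.0133), both chosen after their values were seen. The tetraspanin TSPAN9 rose by 0.91 (adjusted p = 0.0394), a call kept only without CONT 2 and otherwise at up to 0.14.

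The calls of SEMA6B, GOLGA4 and VPS13A held with any library left out, as did those of KIAA2026, which rose from 5.14 ± 2.65 to 11.7 ± 1.79 FPKM (1.12, adjusted p = 0.0108), and TTLL4, a tubulin glutamylase, which fell from 12.7 ± 3.31 to 6.32 ± 0.566 FPKM (-0.87, adjusted p = 0.0101). ANKIB1, a ubiquitin ligase, rose by 0.97 (adjusted p = 0.0229; up to 0.0975 without SHFD 3 or 4 or CONT 3 or 4). LRRC14B fell by 1.01 (adjusted p = 0.0167; up to 0.063 without SHFD 1 or CONT 3). FXYD6, a regulator of the sodium pump, fell by 1.09 (adjusted p = 0.0426), kept only without SHFD 4 or CONT 2 and otherwise at up to 0.148. ANKRD9 fell by 1.26 (adjusted p = 0.0438), with SHFD 2 at 94.8 FPKM just above CONT 2 and CONT 4 at 92.7 FPKM, and was lost without SHFD 1, 3 or 4 or CONT 1 or 3, at up to 0.166. In all, 22 of the 65 called genes named in the text kept their call under every one of the 8 leave-outs. All 65 lost it when only the 8 breast muscle libraries were fitted. With all 24 libraries in the fit, other settings ended some calls at adjusted p of at most 0.101: testing all genes with no filter ended those of G0S2 (0.0824), MB (0.0771), KLHL40 (0.0907) and FKBP5 (0.1), and equal sums over nuclear genes that of EIF4EBP1 (0.062).

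In several lists most members differed in the same direction by value while none was called. Of 41 chaperone and unfolded-protein stress genes 32 were higher by value and 8 wholly so, with a median of 0.20, where 4979 of all 10944 genes were higher by value and 2.74% wholly so. DNAJB4, a cochaperone, averaged 97.97 ± 20.6 against 53.5 ± 7.45 FPKM and HSPA4 78.9 ± 8.58 against 49.5 ± 4.87 FPKM, without overlap, with adjusted p of 0.0698 and 0.12. HSPH1, the exchange factor of HSP70, was at 12.4 ± 5.19 against 4.44 ± 1.28 FPKM (1.24, adjusted p = 0.0896). ATF3, a stress-induced factor, was at 16.6, 67.4, 208 and 127 FPKM in SHFD and 20.8, 15.6, 8.17 and 23.7 FPKM in CONT, with SHFD 1 among the controls, as for KLHL40 and ANKRD1, and was not called (adjusted p = 0.169). The 65 cytosolic ribosomal protein genes had a median of -0.15 with 61 lower by value, and -0.05 without CONT 2. Of 30 interferon and antigen presentation genes 28 were lower, with a median of -0.40, or -0.18 without CONT 2, the library with the high white blood cell markers. The 29 immediate early genes had a median of -0.25, the 34 matrix genes 0.03 and the 23 myokine genes -0.01, all without calls by limma. Without CONT 2 these medians were -0.27, 0.27 and 0.11, that of all genes tested was 0.02, and that of the fatty acid uptake list was -0.13.

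**Figure D3:**
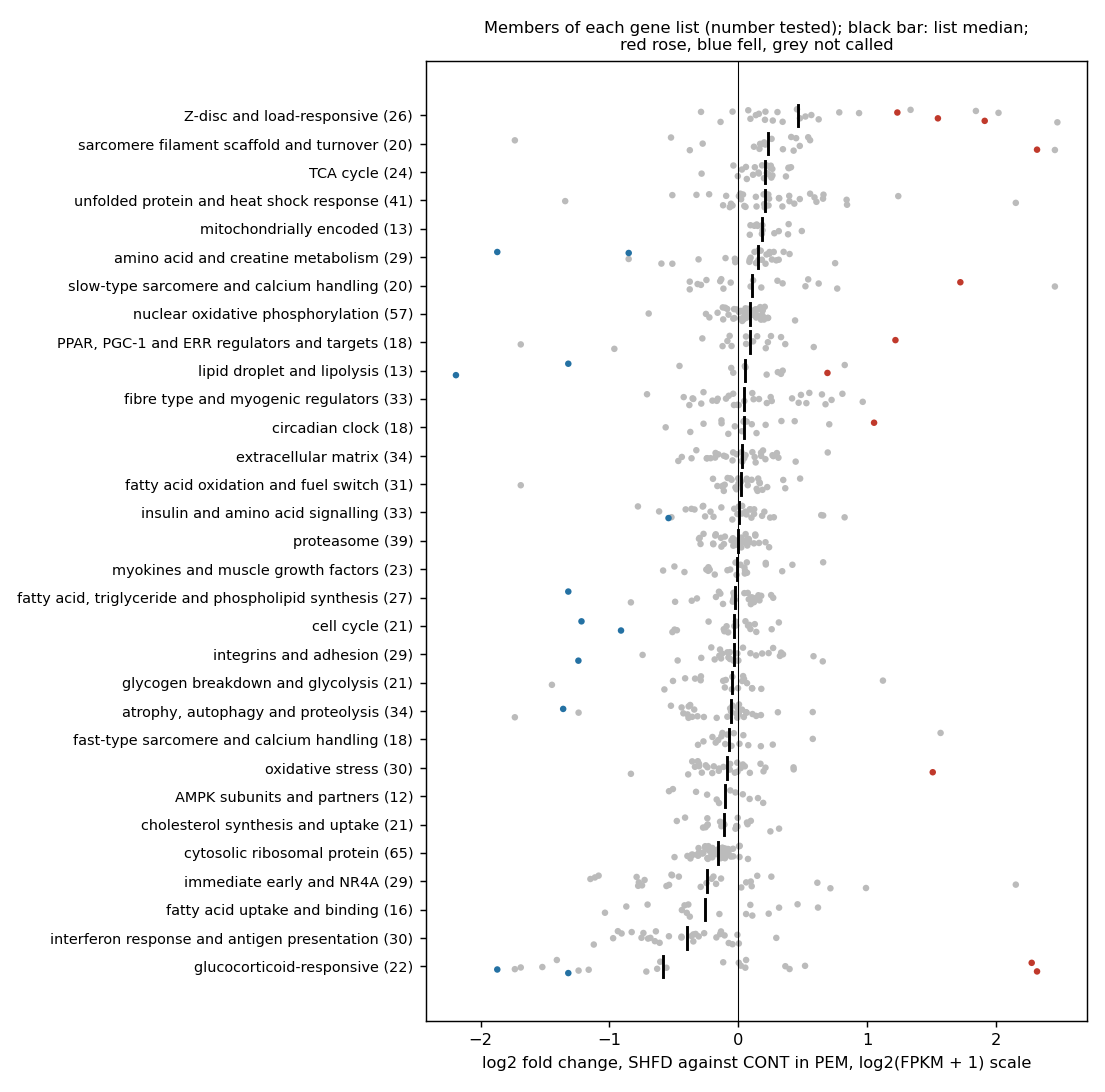
Each point is a member of 1 of 31 gene lists that was tested, placed at its log2 fold change of SHFD against CONT in breast muscle on the log2(FPKM + 1) scale, with red for genes that rose, blue for genes that fell, grey for genes not called and a black bar at the list median. The Z-disc list sits at the top with a median of 0.47 and 3 rises, and the glucocorticoid list at the bottom with a median of -0.58 and calls at both ends.

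Markers of white blood cells separated CONT 2 from the other libraries rather than the diets. The summed FPKM of 18 macrophage markers was 827.8 in CONT 2, against 130.8 to 171.2 in the other controls and 118.9 to 169.0 in SHFD. For 23 lymphocyte markers the sum was 346.6 in CONT 2, against 14.7 to 28.7 and 16.5 to 22.8, and for 12 granulocyte and thrombocyte markers 273.5, against 25.7 to 42.3 and 14.8 to 114.4. None of the macrophage, lymphocyte or granulocyte and thrombocyte markers was called, and all 10 lymphocyte markers tested were lower in SHFD by value. The medians of the 3 lists, -0.55, -0.45 and -0.67, became 0.16, -0.07 and 0.27 without CONT 2. Adipocyte markers summed to 72.8 to 100.7 FPKM in SHFD and 72.6 to 158.5 in CONT, with CONT 2 again highest. PNPLA3 was the only call among the 11 adipocyte markers tested (9.09% against 1.07% of all genes). Endothelial markers summed to 77.1 to 118.5 and 60.6 to 111.6. Fibroblast markers ranged from 164.4 to 228.2 in SHFD and from 145.9 to 341.1 in CONT, satellite cell and regenerating fibre markers from 158.5 to 222.6 and from 206.5 to 260.7, and Schwann cell markers from 17.8 to 23.1 and from 16.8 to 23.6. For the satellite cell list only CONT 2, the lowest control, made the diets overlap, as the other controls, at 222.7 to 260.7, lay above every SHFD sum. None of its 14 members tested was called, with or without CONT 2. The 17 smooth muscle and pericyte markers, which include 3 genes that muscle fibres express too (DES, TPM2 and SYNPO2), reached 2574 in SHFD 4, against 1277 to 1437 in the other SHFD libraries and 942.6 to 1389 in CONT. Red blood cell sums, at 75.0 to 173 and 78.9 to 231, overlapped, and skin epithelium markers stayed under 12 FPKM. GFRA3, FK21 and CD8A at 1 of its identifiers were listed at 0 in all 8 libraries.

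Without CONT 2 the count of calls went from 117 to 173, with 74 genes higher and 99 lower, of which 47 were among the 59 rises and 48 among the 58 falls. Among the calls, CONT 3 had the highest control value for 38 of the 58 falls and CONT 1 the lowest control value for 28 of the 59 rises. SHFD 1 had the highest SHFD value for 29 of the 59 rises. The same counts were not made over all genes tested, so these cannot be read as particular to the calls. What these libraries share was not tested.

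**Figure D4:**
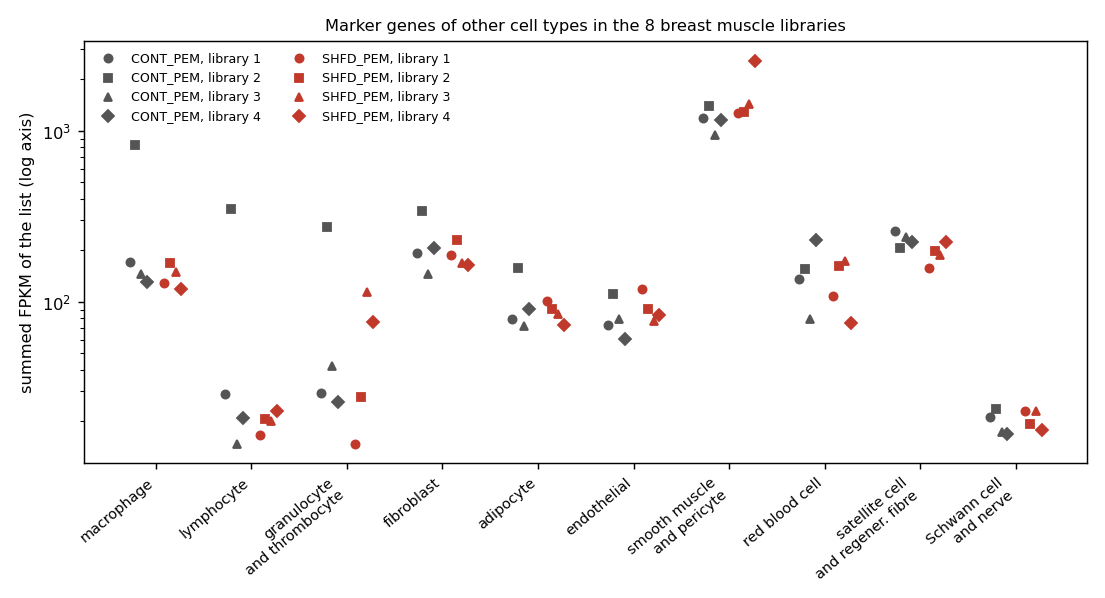
Summed FPKM of the marker genes of 10 other cell types, on a log axis, in each of the 8 breast muscle libraries, with CONT in grey, SHFD in red and the replicate number shown by the marker shape. The square of CONT 2 lies far above all others for macrophage, lymphocyte, and granulocyte and thrombocyte markers, while the remaining lists overlap between diets.

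The study set the fast breast muscle beside the soleus, which was taken from the same birds and carries more oxidative fibres. In the soleus the same 15 days called 61 genes (0.557%), 18 higher and 43 lower, in the same limma fit. Of the 117 breast muscle calls, 5 were also called in the soleus and in the same direction, which is 4.27% of the breast calls and 8.20% of the soleus calls: SYNPO2L rose in both, and PNRC1, RFX5, H1-10 and APLF fell in both, the breast call of APLF being lost without SHFD 2, SHFD 3, CONT 1 or CONT 3 (adjusted p of up to 0.08). By value, 44 of the 59 rises (74.6%) were higher in the soleus, where 26.1% of all genes were higher, and 56 of the 58 falls (96.6%) were lower, where 73.9% of all genes were. Both muscles were taken from the same birds, but the labels do not say which bird gave which library. The breast and soleus libraries may thus share birds and cannot be taken as independent samples. The part of birds in these shares was not tested. SYNPO2L went from 281 ± 67.2 to 546 ± 150.4 FPKM in the soleus (0.94, adjusted p = 0.0484) and PNRC1 from 323 ± 14.6 to 196 ± 32.3 FPKM (-0.73, adjusted p = 0.0478). MYOT, by contrast, averaged 1366 ± 369 FPKM in CONT and 1338 ± 249 FPKM in SHFD in the soleus.

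The difference of the diet effect between the muscles was tested as an interaction. It was called for 1 gene of 10944 (0.00914%), with 701 at an unadjusted p under 0.05. That gene, ENSGALG00000051520, carries no symbol: it was at 46.4 ± 11.8 FPKM in SHFD and 2.03 ± 0.238 in CONT in the soleus, and at 1.14 ± 0.516 and 1.13 ± 0.794 FPKM in breast muscle (-3.89, adjusted p = 0.000248). No gene called in breast muscle passed this test, so none of the breast calls is shown to be specific to that muscle. With the replicate number shared by both muscles of a diet as a block, the interaction again called 1 gene (677 at an unadjusted p under 0.05) and no gene called in breast muscle, where the smallest adjusted p was 0.295. In the fit without that block, MYOT, with a difference of effects of 1.56, and LPIN1, with -1.84, were among the nearest. Both had an adjusted p of 0.187, the smallest among the genes called in breast muscle. LPIN1 in the soleus averaged 28.3 ± 5.80 FPKM in SHFD and 19.2 ± 1.77 in CONT (0.52, adjusted p = 0.348). For KLHL40 the soleus effect was 2.18 and for XIRP1 2.62, close to the breast values of 2.32 and 2.02.

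Breast muscle after 60 days of the diet was compared with the same 4 CONT libraries, so the comparisons at 15 and 60 days share controls and are set side by side only. At 60 days 760 genes (6.94%) were called, 224 higher (2.05%) and 536 lower (4.9%). The test that does not use the controls, 60 against 15 days, called 22 genes (0.201%), 13 higher (0.119%) and 9 lower (0.0822%), none of them among the 117, where the smallest adjusted p was 0.0762. MYOT was at 134 ± 20.6 FPKM after 15 days and 117 ± 32.1 after 60, SYNPO2L at 140.0 ± 23.4 and 138 ± 26.9, and G0S2 at 15.8 ± 6.60 and 13.7 ± 16.3 FPKM. MB, at 136 ± 63.5 FPKM after 15 days, was at 59.8 ± 55.5 after 60, near the control mean of 39.1 ± 14.0, but the difference between the durations (-1.43) had an adjusted p of 0.159. KLHL40 averaged 354 ± 331 and 546 ± 194 FPKM, and PER2 8.13 ± 3.20 and 13.5 ± 3.51 FPKM, with adjusted p of 0.49 and 0.19 between durations. CPT1A, not called at 15 days, was lower after 60 than after 15 days by 1.35 on the log2 scale (adjusted p = 0.0153). In the Z-disc list 7 genes rose at 60 days, among them XIRP1 (3.79 against CONT, adjusted p = 0.000669).

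**Figure D5:**
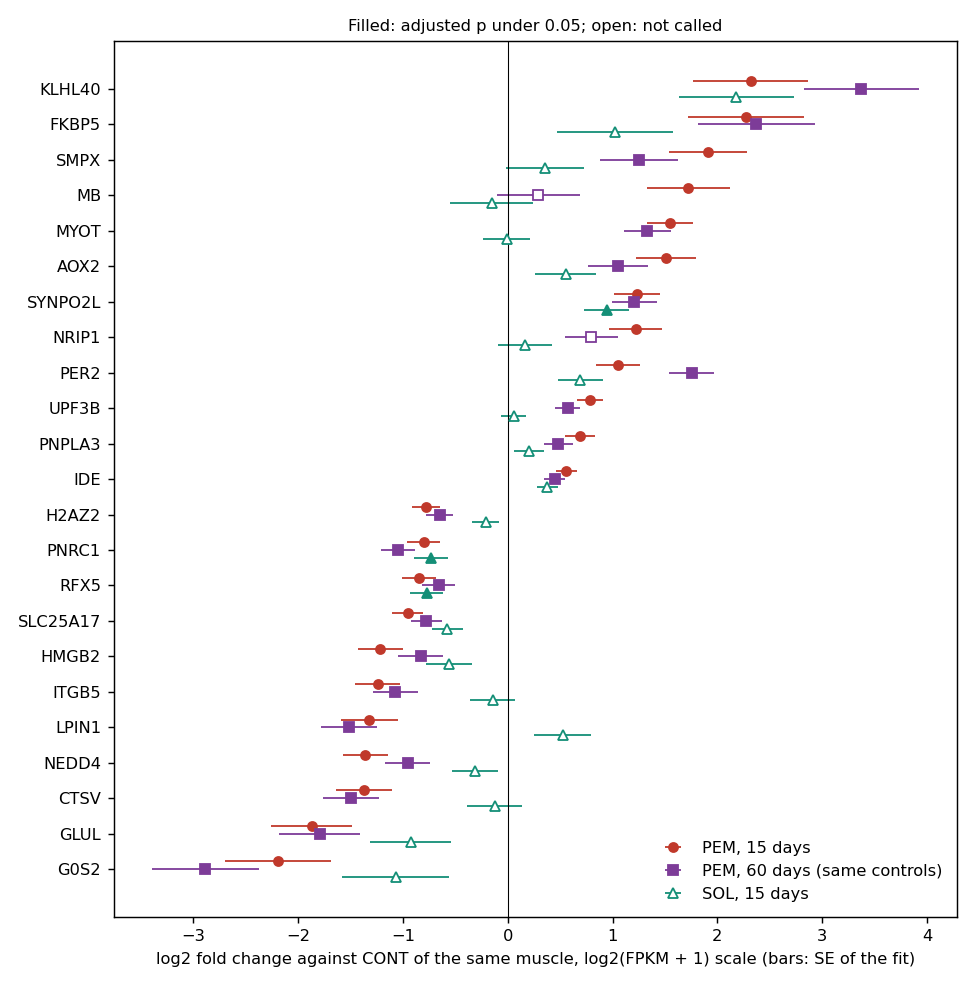
Log2 fold change against CONT of the same muscle, with the SE of the limma fit as a bar, for 23 named genes in breast muscle after 15 days (red circles), breast muscle after 60 days (purple squares, same controls) and soleus after 15 days (green triangles), filled where the adjusted p was under 0.05. The red and purple points, which share controls, lie farthest apart for MB (1.72 and 0.29) and KLHL40 (2.32 and 3.37). The soleus points lie nearer to 0 for MYOT, MB and ITGB5. For LPIN1 the soleus point is at 0.52, while both breast points are below 0.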

How the data were processed

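RNA was measured by sequencing in 24 libraries, 4 per diet and muscle. Per the labels' protocols and the submitters' processing notes, reads were trimmed with fastp and aligned with HISAT2 to GRCg6a, and the authors deposited FPKM per gene made with StringTie v1.3.3b; Cufflinks and DESeq2 are listed without a role. FPKM are scaled within each library, hold no read counts, and leave depth unknown. For the present text, genes at 1 FPKM in at least 4 of 24 libraries were tested with limma 3.58.1 in R 4.3.3 on log2(FPKM + 1), with 6 group means, 18 residual degrees of freedom, an intensity trend and Benjamini-Hochberg adjustment over 10944 genes at 0.05. Fold changes on this scale understate those of low genes. The fit held no term for birds, and breast and soleus libraries may share them. The 18 residual degrees of freedom may thus overstate how many independent values stand behind the calls. A change of 1 log2 unit was recovered for 87 of 100 genes, and of 2 units for 98 of 100, in simulated data of this comparison over 10944 genes, with 13 false calls. The simulated noise was normal, with the spread of each gene pooled over all 24 libraries and equal in every group. Changes were planted only in genes above a low level in CONT breast muscle, and no library was made to stand apart as CONT 2 does. These shares are thus a check of the fit and not the power of the real comparison. Library shares were compared with exact permutation tests.

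Members and gene lists were chosen with earlier results of these data known. Named genes were the called genes with a symbol and an average of 5 FPKM or more that ranked in the top 15 of either direction by fold change, up to 4 members per list described, and 28 fixed genes; others are said to be chosen after their values were seen. The other named genes outside the rule, also chosen after their values were seen, were UPF3B, RBBP6, PRPF4B, U2SURP, THOC2, SNRNP35, H2AZ2, H3F3B, SMARCD2, RFX5, ATAD2B, OIP5 and APLF. Same-numbered libraries of the diets were not treated as pairs. Alternatives varied the pseudocount, filter, scaling, libraries in the fit, replicate block and each library.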

Additional observations from a re-analysis of the deposited data

Results flagged for a closer look

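A library far from the other 3 of its group was found in 14 of 254 groups of 4 examined, close to the 5% that chance gives. Of the 14, 6 were CONT 2. A single flag among those below cannot be told from chance. That library had 10484 genes at 1 FPKM or more and marker sums of 827.8 FPKM for macrophages, 346.6 for lymphocytes and 273.5 for granulocytes and thrombocytes, with PPARD at 7.91 FPKM below and FASN at 2.321 FPKM above the other controls. In CONT 3, LDHA was the lowest at 7474 FPKM, ATAD2B the highest at 2.692 FPKM and the skin and feather epithelium markers were the highest at 9.178 FPKM. SHFD 2 was the lowest of its group for MYOT at 103.4 FPKM and for H2AZ2 at 20.36 FPKM. SHFD 4 was the lowest for TPM2 at 7.724 FPKM and the highest for FXYD6 at 18.04 FPKM and for the smooth muscle and pericyte markers at 2574 FPKM.

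The diet effect differed between the muscles for ENSGALG00000051520, by -3.894 on the log2 scale in the interaction test of limma (adjusted p = 0.000248), with the change in the soleus.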

How the results depend on the processing

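The 117 calls kept their direction under every alternative in which they were tested. With the changed filters, the replicate block and the fit of 8 libraries this was fixed beforehand, as these leave each fold change as it was. With only the 8 breast muscle libraries in the fit, 0 genes were called higher and 0 lower, as set out beside the main count; that fit has 6 residual degrees of freedom. The counts higher and lower were 53 and 56 with a pseudocount of 0.1, 79 and 57 with quantile normalization, 58 and 40 with equal sums over nuclear genes, 45 and 51 with no filter, and 50 and 51 with the stricter filter of 5 FPKM. Leaving out each library in turn gave 20 to 74 higher and 27 to 99 lower, and 1 to 2 genes in the interaction, which quantile normalization also put at 2. With the replicate number as a block the counts were 45 and 50, with 91 of the 117 shared; same-numbered SHFD and CONT libraries correlated at -0.122 to 0.258, so the numbers do not pair the diets, though each breast library matched the soleus library of its own number best, at 0.075 to 0.362, a hint from the data and not the design. Of the 65 called genes named, all lost their call in the fit of 8 libraries, and 23 under at least 1 other setting that leaves out no library: 21 with no filter, 11 with the replicate block, 6 with equal nuclear sums, 2 with a pseudocount of 0.1 and 3 with quantile normalization (adjusted p of at most 0.101). The mitochondrial difference ranged from 0.785 to 2.35 percentage points without single libraries (exact permutation p = 0.1714 to 0.5714).

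Among the named genes, signs turned only for some that were not called. CPT1A turned without SHFD 2, with values of -0.3173 to 0.0043 over the 8 leave-outs. ANGPTL4 turned without SHFD 1, CONT 3 or CONT 4 (-0.0889 to 0.2554), FABP3 without SHFD 1 or CONT 2 (-0.1524 to 0.2914), and PPARA (-0.0317 to 0.3321) and LDHA (-0.1505 to 0.0554) without SHFD 1. FASN turned without SHFD 4 or CONT 2 (-0.1115 to 0.1952) and also with a pseudocount of 0.1 (0.0044) and quantile normalization (0.0131), LDHB without CONT 2 (-0.5251 to 0.1479), and MYH1E without SHFD 2 or CONT 1 (-0.0581 to 0.1486). The cause was not tested.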

Other observations

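Calls outside the lists above, chosen after their values were seen, included 2 genes of the actin cytoskeleton. LIMK2, a kinase that inactivates cofilin, fell from 4.63 ± 1.04 to 1.92 ± 0.624 FPKM (SD, n = 4 each; -0.95, SE 0.19, adjusted p = 0.0167 by limma; up to 0.0633 without SHFD 1, SHFD 3, CONT 1 or CONT 3). SH3PXD2A, a scaffold of actin-rich podosomes, fell from 5.84 ± 2.66 to 2.50 ± 0.377 FPKM (-0.90, adjusted p = 0.0167; 0.0724 without SHFD 3). The tetraspanin TSPAN15 fell by 1.08 on the log2 scale (adjusted p = 0.00681) with any library left out. SLC41A3, a magnesium carrier, fell by 1.41 (adjusted p = 0.0319), and FGFRL1, a receptor that binds fibroblast growth factors without a kinase domain, rose by 1.11 (adjusted p = 0.0299) with SHFD 4 at 1.10 FPKM inside the control range. SAMD4A, an RNA-binding repressor of translation, rose by 0.76 (adjusted p = 0.0395), kept only without CONT 2. SLC41A3 lost its call without SHFD 1, 3 or 4 or CONT 3 or 4 (up to 0.111), FGFRL1 without SHFD 1, 2 or 3 or CONT 1, 3 or 4 (up to 0.136), and SAMD4A reached up to 0.124.

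The gene with the largest difference of all tested, ENSGALG00000053368, has no symbol or annotation in the table and was not called (adjusted p = 0.103, or 0.013 without CONT 2). It was at 162.5, 275.5, 253.2 and 265.5 FPKM in SHFD 1 to 4, at 201.9 FPKM in CONT 2, and listed at 0 in the other 3 controls. In LHFD breast muscle it was at 85.27 and 253.1 FPKM in 2 libraries and listed at 0 in the others.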
